A study of Mus musculus with 2 samples.

Results

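Lipid-associated macrophages of mouse liver tumors were taken as single-cell barcodes that carried the complement genes C1qa, C1qb and C1qc together with Trem2 or Gpnmb, and 405 of 32946 barcodes in 2 libraries met the rule. A member had at least 500 unique molecular identifiers (UMIs, each standing for 1 captured transcript), at least 200 genes and at most 25% mitochondrial UMIs. It had at least 5 UMIs of C1qa, C1qb and C1qc summed, at least 3 of Trem2 and Gpnmb summed, 0 of the Kupffer cell lectin Clec4f, at most 1 of Cd3d, Cd3e and Cd3g, 0 of Cd79a and at most 1 of Siglech. The WT library gave 232 members of 9853 barcodes within the UMI, gene and mitochondrial limits, and the hKO library 173 of 11451. Levels of the genes that the rule reads describe the selection and support nothing here.

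Macrophages of this state gather where tissue is loaded with lipid, such as obese fat, fatty liver and tumors. TREM2 is a surface receptor for lipids and lipoproteins that signals through the adaptor TYROBP, and GPNMB is a glycoprotein induced when lysosomes are under load. The state is known for genes of lipid uptake and binding (Lpl, Cd36, Fabp5), lysosomal digestion (Ctsd, Lipa), lipid storage (Plin2) and secreted or surface proteins such as osteopontin (Spp1) and the tetraspanins Cd9 and Cd63. Kupffer cells are the macrophages that reside in liver sinusoids and are marked by Clec4f, Vsig4, Timd4 and Cd5l.

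Both libraries were made by droplet-based 10x Genomics 3′ sequencing from C57BL/6J mice that had been fed a diet labelled CD-HFD for 15 months. The WT library was titled WT and the hKO library FABP5 hKO, a knockout of Fabp5 in hepatocytes, for which Alb-CRE-ER, a tamoxifen-activated recombinase under the albumin promoter, is directed to hepatocytes and not to macrophages. Littermates of both genotypes received tamoxifen at 6 to 8 weeks of age, 5 times at 100 mg/kg every 3 days after 16 h without food, and the diet began 2 weeks after the last dose. For each library 2 to 3 liver tumors were pooled. Differences between hKO and WT therefore describe 2 pools: there is no replicate, no p-value, and every interval on them is a 95% interval for counting error only.

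Members summed to 1908864 UMIs in WT and 1401910 in hKO, with a median of 7615.5 and 7093 UMIs per cell. The hepatocyte gate held 50 UMIs of Fabp5 in WT (28.0 CPM, counts per 1000000 UMIs of the gate) and 24 in hKO (10.6 CPM), a log2 ratio of -1.40 (-2.17 to -0.68). The sources used here do not say which part of the gene was deleted. Median mitochondrial shares of all barcodes within the limits were 6.83% and 9.78%. Both libraries shared 73 barcodes, and none was a member in both.

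Members made up a smaller share of the hKO library. They were 2.36% of the barcodes within the limits in WT (exact Clopper-Pearson interval 2.06 to 2.67) and 1.51% in hKO (1.30 to 1.75), a log2 ratio of -0.64. Of C1q-positive macrophages that passed the other exclusions, members were 232 of 1155 in WT, or 20.1% (17.8 to 22.5), and 173 of 1902 in hKO, or 9.10% (7.84 to 10.5), a log2 ratio of -1.14. In this main setting the intervals did not overlap on either base. Before the Cd3, Cd79a and Siglech exclusions, 329 WT and 338 hKO barcodes met the other terms of the rule. The Cd3 limit left 249 and 197, and all exclusions together left 232 and 173. The part of these exclusions in the lower hKO share was not tested. A gate on a UMI count depends on depth, and the share fell further when every barcode was thinned to 2000 UMIs before gating, to 14.7% of C1q macrophages in WT and 3.81% in hKO. The order of the libraries was the same under all 8 alternative settings, while the log2 ratio ran from -0.74 to -1.95 on the macrophage base and from -0.24 to -1.35 on all barcodes. On all barcodes the intervals overlapped at a mitochondrial limit of 10% (2.486 to 3.286 in WT, 1.89 to 2.665 in hKO). They also did with at least 2 Trem2 and Gpnmb UMIs (2.705 to 3.393, 2.294 to 2.883). Without barcodes over 1% hepatocyte UMIs they overlapped as well (2.26 to 2.937, 1.774 to 2.431).

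The hKO members sat closer to the threshold. Barcodes with 3 to 5 UMIs of Trem2 and Gpnmb were 104 of 232 members in WT (44.8%) and 111 of 173 in hKO (64.2%), those with 6 to 11 were 53 (22.8%) and 34 (19.7%), and those with 12 or more were 75 (32.3%) and 28 (16.2%). Trem2 was summed to 958 CPM in WT and 511 CPM in hKO members, and Gpnmb to 670 and 336 CPM. Just inside the threshold, at 3 UMIs, lay 42 WT and 60 hKO barcodes, with Lpl at 678 and 674 CPM. Just outside it, at 2 UMIs, lay 67 and 122 barcodes, with Lpl at 315 and 820 CPM. Most members carried both genes: 57.8% in WT and 53.8% in hKO had at least 1 UMI of each, 37.9% and 40.5% only Trem2, and 4.31% and 5.78% only Gpnmb.

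The label was checked on Spp1, Cd9 and Lpl, markers of the state that the rule did not use. After every cell was thinned to 2000 UMIs, 210 WT and 166 hKO members remained, and 22 and 7 were too shallow. Lpl, the lipase that frees fatty acids from lipoproteins, was seen in 62.9% of WT and 68.7% of hKO members, against 2.71% and 5.95% of T-cell barcodes without C1q UMIs, which should lack it. Cd9 was seen in 31.0% and 30.7% of members and 7.99% and 7.54% of the T-cell barcodes. Spp1 was seen in 19.0% and 15.7% of members and in 4.61% and 3.57% of T-cell barcodes, and its summed level in those T-cell barcodes was 177 CPM in WT and 22.7 CPM in hKO. In T-cell barcodes with 1 to 4 C1q UMIs, Lpl was seen in 2.62% in WT and 12.4% in hKO. For Cd9 the shares in these barcodes were 8.22% and 9.55%, and for Spp1 4.55% and 3%. The part of free RNA in the members' Spp1 was not tested. Other macrophages carried these genes too. In thinned Kupffer barcodes, which had Clec4f, Lpl was seen in 60.6% in WT and 61.5% in hKO, so its detection hardly set members apart from them. Cd9 was seen there in 18.6% and 12.8%, and Spp1 in 2.36% and 4.59%. In C1q macrophages without Trem2 or Gpnmb the shares were 34.2% and 37.4% for Lpl, 20.1% and 21.0% for Cd9, and 5.08% and 4.98% for Spp1. Without thinning, the shares with Spp1 were 29.7% and 31.8% of members, at a median of 7615.5 and 7093 UMIs per cell.

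The markers were unevenly spread over members. Spp1 UMIs were concentrated in few cells: the 24 WT members with most held 88.2% of them and the 18 hKO members with most 85.3%. Lpl was broader, with 43.6% and 38.6% in as many cells. All of Spp1, Cd9 and Lpl had a UMI in 42 WT members (18.1%) and 39 hKO members (22.5%), and none of them did in 25 (10.8%) and 16 (9.25%). Dividing cells, with at least 2 UMIs of Mki67 and Top2a, were 8 in WT and 4 in hKO. At least 2 UMIs of the Kupffer cell genes Vsig4, Timd4, Marco, Folr2, Fcna, Cd207 and Cd163 together were carried by 69 WT members (29.7%) and 20 hKO members (11.6%), although Clec4f was 0 in every member. Cells with Kupffer cell transcripts thus made up unequal shares of the gate in the 2 libraries.

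Lpl, Ctsd and Fabp5, which the rule did not read, were highest in the cells with most Trem2 and Gpnmb, while Cd63 and Apoe were so in WT only. From the lowest to the highest of the 3 UMI bins, Lpl was at 841, 952 and 2344 CPM in WT and 813, 828 and 1687 CPM in hKO. Ctsd, the lysosomal protease cathepsin D, was at 1289, 1765 and 3534 CPM in WT and 1641, 2614 and 3422 CPM in hKO. Both genes were thus highest in the top bin of both libraries. Fabp5 was at 23.3, 34.2 and 126 CPM in WT and 38.6, 76.7 and 132 CPM in hKO. Cd63 ran from 791 to 1980 CPM in WT, while in hKO it was 899, 1441 and 1375 CPM. Apoe was at 24880, 31470 and 32260 CPM in WT, and at 16710, 24910 and 19930 CPM in hKO. Mrc1, the mannose receptor, was lowest in the top bin, at 339 CPM in WT and 344 CPM in hKO. Median UMIs per cell also differed between the bottom and top bins, 6151.5 against 10968 in WT and 6930 against 10729.5 in hKO, and their part in these levels was not tested.

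**Figure D1:**
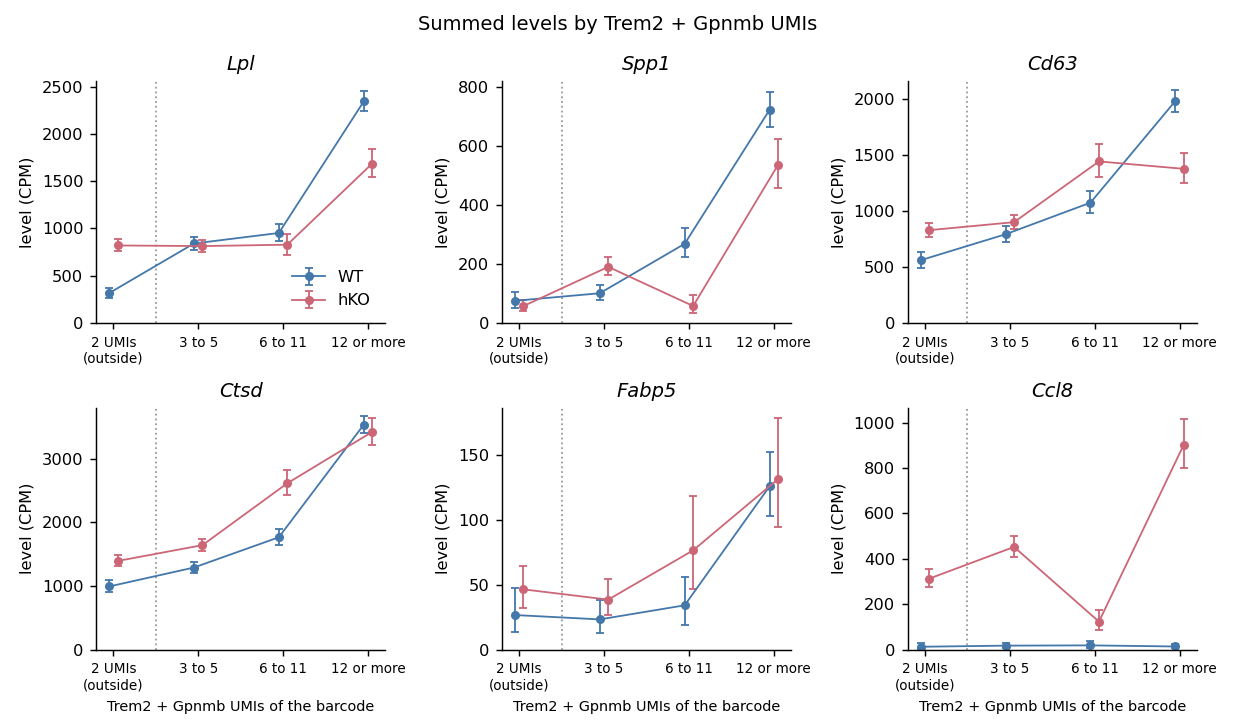
Summed level in CPM (vertical axes, linear, from 0) of 6 genes in barcodes grouped by their Trem2 and Gpnmb UMIs (horizontal axes); points are the WT (blue) and hKO (red) library, bars are exact Poisson 95% intervals for counting error, and the dotted line is the threshold of 3 UMIs. Lpl reached 2344 CPM in WT and 1687 CPM in hKO in the top bin, and Ccl8 was at most 18.2 CPM in the WT bins and 903 CPM in the top hKO bin, where 1 barcode held 232 of the 281 UMIs and the level without it was 164 CPM.

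Members were set against the C1q macrophages of the same libraries that had no UMI of Trem2 or Gpnmb (680 in WT, 1316 in hKO), with the same other exclusions. UMIs were summed per library and gate and tested with edgeR's quasi-likelihood test with Benjamini-Hochberg adjustment over 11070 genes; a gene passed at an adjusted p under 0.05 and a log2 fold of at least 1 in size. The replicates are the 2 libraries, which also differ in genotype, and the p-values concern these 2 pools only. A pass does not by itself mean that both libraries show the difference. Dcn, for example, passed as lower with a log2 ratio of -3.98 in WT and -0.14 in hKO. Of 31 genes listed for the lipid-associated state, 20 were higher in members and 0 lower, against 1.30% of all genes tested higher and 4.36% lower. All 31 had a log2 fold above 0, so none was lower at any p, and DESeq2 also called 20 and 0. The list's median log2 fold was 1.14, and that of all genes tested 0.01. The list was chosen with earlier results of these data known, and it names genes that are described together with Trem2, so its count describes the gate. The comparison gate was shallower, with a median of 2458 UMIs in WT and 3109 in hKO, and between barcodes of 2000 to 15000 UMIs only, 22 of the 31 were higher.

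Several lipid uptake genes and the storage gene Plin2 were higher in members. Lpl was at 1516 CPM in WT members against 386 CPM in macrophages without Trem2 or Gpnmb, and at 1010 against 363 CPM in hKO (log2 fold 1.85, adjusted p 0.000542 in edgeR's quasi-likelihood test). Plin2, which coats lipid droplets, was at 793 against 279 CPM in WT and 521 against 217 CPM in hKO. Cd36, a fatty acid translocase, was at 556 against 276 CPM and 524 against 204 CPM (1.29). In each case both libraries were higher in members. Apoe, the lipoprotein that carries lipid out of the cell, was at 29586 against 14946 CPM in WT and 18953 against 10191 CPM in hKO (1.05), and the scavenger receptor Olr1 and fatty acid transporter Slc27a1 passed at log2 folds of 1.52 and 1.73. The uptake and binding list had 5 of 16 tested genes higher, against 1.30% of all genes tested higher and 4.36% lower. The lipid droplet list had 1 of 14 higher, Plin2, and 2 lower, Dgat2 and G0s2, with a median log2 fold of 0.27. Fabp4, a close relative of Fabp5, had 237 against 302 CPM in WT and 233 against 172 CPM in hKO, opposite directions in the libraries, and did not pass.

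Fabp5, the fatty acid binding protein that the study deletes in hepatocytes, was among the genes of highest fold. It was at 70.2 CPM in WT members (134 UMIs) and 11.5 CPM in macrophages without Trem2 or Gpnmb (31 UMIs), and at 66.3 CPM (93 UMIs) and 15.7 CPM (85 UMIs) in hKO, a log2 fold of 2.42 with an adjusted p of 0.000354 in edgeR's quasi-likelihood test. Against the Kupffer gate, where it was at 5.02 CPM in WT and 9.61 CPM in hKO, the log2 fold was 3.50 (adjusted p 0.000228, same test). Fabp5 was seen in 9.52% of thinned WT members and 12.7% of hKO members, against 0.407% and 1.39% of T-cell barcodes without C1q. In T-cell barcodes with 1 to 4 C1q UMIs it was seen in 0.699% and 2.62%. Between hKO and WT members, the log2 ratio of Fabp5 was -0.08 with an interval of -0.48 to 0.31, so a change of 2-fold in either direction lies outside the counting error of these pools.

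Lysosomal genes were higher too, mostly by less than 2-fold. Ctsd was at 2369 against 765 CPM in WT and 2218 against 679 CPM in hKO (log2 fold 1.78), Ctsb at 3309 against 1833 CPM and 3751 against 1766 CPM (1.08), and Lipa, the acid lipase that digests lipoprotein lipids, at 471 against 267 CPM and 515 against 256 CPM (1.02). Of 28 lysosome genes tested, 5 passed as higher (Atp6v1b2, Ctsk, Gla, Lipa and Mitf), against 1.30% of all genes tested. Ctsd and Ctsb also passed, but they stood in the lipid-associated list and not among these 28. At an adjusted p under 0.05 of any size in edgeR's quasi-likelihood test, 19 of the 28 were higher. The lysosome list's median log2 fold was 0.72. Mitf, a transcription factor of lysosome genes, was at 561 against 272 CPM in WT and 544 against 215 CPM in hKO (1.30), while its relative Tfeb had 77.0 against 59.2 CPM and 75.6 against 71.5 CPM and did not pass.

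The highest folds went to genes of several roles. Syngr1, a vesicle protein, was at 39.3 against 2.61 CPM in WT and 59.9 against 4.25 CPM in hKO (log2 fold 3.90), and Vsig8 had a log2 fold of 3.84. Atp6v0d2, a proton pump subunit also made by osteoclasts, was at 155 against 12.3 CPM and 224 against 22.0 CPM (3.53). Fam20c, a secretory kinase, Fabp5 and Mmp12, the macrophage elastase, had 2.77, 2.42 and 2.41. The other named genes of highest fold were the chemokine Cxcl14 (2.19), the membrane protein Emp1 (2.17), the actin-capping protein Capg (2.08), the noncoding RNA Airn (2.01), the stress cytokine Gdf15 (1.99) and lamin A (Lmna, 1.95). Cd63 (1.92), Lgals1 (1.79), Spp1 (1.74) and Lgals3 (1.49), which encode a lysosomal tetraspanin, galectin-1, osteopontin and galectin-3, also passed. Cd9 had 283 against 142 CPM in WT and 207 against 136 CPM in hKO, a log2 fold of 0.91 that misses the size limit.

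**Figure D2:**
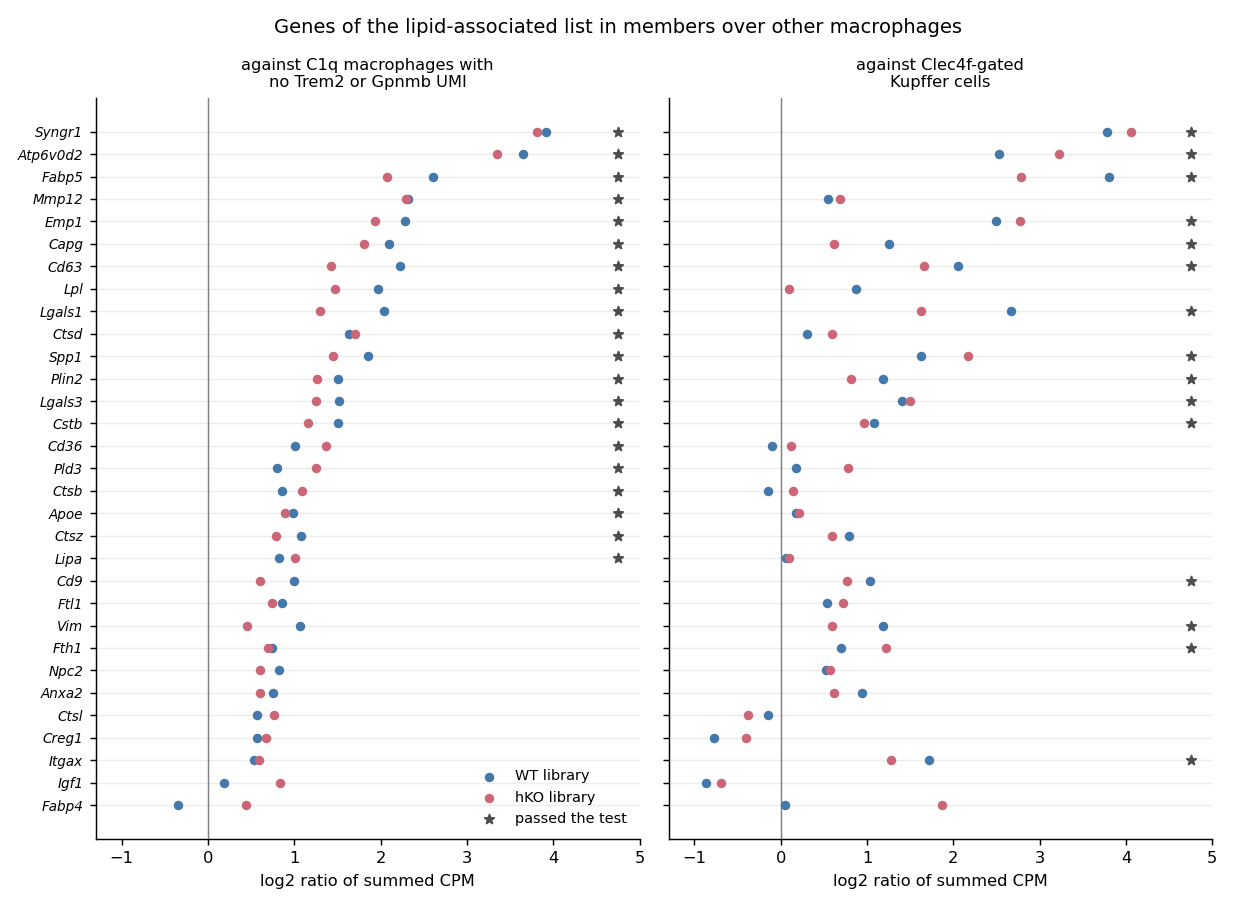
Log2 ratio of summed CPM (horizontal axes) for the 31 genes of the lipid-associated list, with 1 point for the WT (blue) and 1 for the hKO (red) library. Members are set over C1q macrophages without Trem2 or Gpnmb UMIs (left) and over the Kupffer gate (right). Stars mark genes that passed the test, which was 1 fit over both libraries. On the left 20 genes passed and all but Fabp4 in WT lie above 0; on the right 15 passed.

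General macrophage genes separated the 2 gates less. Cd68 and Lyz2 were 2 of 10 identity genes that passed as higher (log2 folds 1.20 and 1.37), while Csf1r, the receptor for the macrophage growth factor, had 534 against 523 CPM in WT and 454 against 375 CPM in hKO, and Adgre1 444 against 398 CPM and 320 against 307 CPM. Among the 12 named genes of lowest fold were those of other cell types: the fibroblast proteoglycan Dcn (-3.11), the granzyme Gzma (-2.80), the heme synthesis gene Alas2 (-2.27), the dendritic cell genes Zbtb46 (-2.03) and Flt3 (-1.91) and the killer cell lectin Klrd1 (-1.68). The rest were St6galnac3, Rora, BC035044, Arap2, Dlg2 and Dpp4. Of the markers of other cells, 7 of 9 endothelial, 4 of 5 neutrophil and 5 of 5 erythroid genes tested were lower in members, against 4.36% of all genes. Endothelial markers were 0.0558% of member UMIs and 0.184% of the comparison gate's in WT, and 0.0471% and 0.0654% in hKO, neutrophil markers 0.0113% and 0.0875% in WT and 0.0287% and 0.118% in hKO, and erythroid markers 0.366% and 2.71% in WT and 0.0912% and 0.395% in hKO. The part of such RNA in the 483 genes that were lower was not tested. Dcn rested on WT, with 4.71 against 74.4 CPM there and 2.85 against 3.14 CPM in hKO.

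The comparison with the Kupffer gate (barcodes with at least 1 Clec4f UMI and any Trem2 and Gpnmb, otherwise the same rule, 563 barcodes in WT and 136 in hKO) asks what sets members apart from resident macrophages. In the same edgeR fit 15 of the 31 listed genes were higher and 0 lower, against 1.90% and 3.21% of the 11070 genes tested. At an unadjusted p under 0.05 and any size, 24 were higher and 2 lower, and DESeq2 called 14 and 0. The list had a median log2 fold of 0.89, against 0.03 over all genes. Cd63 was at 1370 CPM in WT members and 331 CPM in the Kupffer gate, and at 1106 and 350 CPM in hKO (log2 fold 1.96). Spp1 (1.87), Lgals1 (2.26), Lgals3 (1.53) and Itgax, the integrin CD11c (1.61), passed as well. Lpl did not: it was at 831 CPM in the WT and 948 CPM in the hKO Kupffer gate, a log2 fold of 0.58 with an adjusted p of 0.0997 in edgeR's quasi-likelihood test. Ctsd, Ctsb, Lipa, Cd36 and Apoe had log2 folds of 0.53, 0.08, 0.17, 0.09 and 0.28, none of which passed. Over these 6 genes the ratios within a library ran from -0.15 for Ctsb to 0.87 for Lpl, both in WT.

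Kupffer cell genes were lower in members, a difference that follows the use of Clec4f to part the gates. Of 18 listed, 15 were lower, against 3.21% of all genes tested, with a median log2 fold of -2.67. Vsig4, a complement receptor, was at 229 CPM in WT members and 1410 CPM in the Kupffer gate, and at 39.9 and 716 CPM in hKO (-3.20). Marco, Timd4, Fcna and Folr2 had log2 folds of -4.18, -3.47, -3.75 and -3.40, and Slc40a1, the iron exporter, -2.02. Marco and Timd4 rested mostly on WT. Marco had 9 UMIs in WT members against 248 in the Kupffer gate, but 0 against 4 in hKO. Timd4 had a log2 ratio of -5.83 in WT and -1.11 in hKO, where 1 barcode held 13 of the 14 UMIs of members. Cxcl13 had 0 UMIs in members of both libraries, against 161 in the WT and 35 in the hKO Kupffer gate. The others of the 12 lowest were Pcolce2, C6, Tmem117, Tmtc1, Kcna2 and Kcnj16, of which C6, a terminal complement component, had 21 UMIs in members against 1205 in the Kupffer gate in WT, and 6 against 183 in hKO.

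Some class II, chemokine receptor and matrix genes were higher in members than in the Kupffer gate. Over all genes tested 1.90% were higher and 3.21% lower in this comparison. Of 13 class II genes, 5 passed as higher (Cd74, Ciita, H2-Aa, H2-Ab1 and H2-Eb1): H2-Eb1 was at 5648 against 1798 CPM in WT and 3982 against 2001 CPM in hKO (log2 fold 1.42). Of 11 class I genes, 1 was higher at an adjusted p under 0.05 in edgeR's quasi-likelihood test but by less than 2-fold, and the median was 0.24. Of 7 chemokine receptor genes, 4 were higher (Ccr1, Ccr2, Ccrl2 and Cx3cr1). Cx3cr1, the fractalkine receptor, was at 159 against 39.1 CPM in WT and 211 against 96.1 CPM in hKO (1.69). Ccr2, the receptor that brings monocytes into tissue, was at 260 against 55.9 CPM in WT but 230 against 183 CPM in hKO (1.36). Of 15 matrix genes, 6 were higher (Mmp13, Mmp14, Plau, Plaur, Tgfbi and Thbs1) and 2 lower (Sparc and Timp3), and of 14 monocyte genes 4 were higher (Ccr2, Chil3, Cx3cr1 and F13a1) and 1 lower. Further genes of high fold were H2-M2 (2.62), the adaptor Lat2 (2.58), Cacna1d (2.50), the motor Myo5a (2.49), Tnip3 (2.45) and the transporter Slco2b1 (2.44). Ccl8 also passed (2.31, adjusted p 0.0162 in edgeR's quasi-likelihood test), but on hKO alone: it was at 15.7 against 13.6 CPM in WT and 491 against 46.9 CPM in hKO.

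The MiT/TFE transcription factors, among them MITF and TFEB, bind E-box motifs in promoters of lysosome genes, so the listed genes' promoters were read for the E-boxes CACGTG and CATGTG on both strands. In the 250 bases before the transcription start (RefSeq, GRCm38.p6, a build other than the mm9 noted by the submitters), CACGTG occurred in 6.02% of 32851 promoters and CATGTG in 12.3%. Of the 31 listed genes 24 were matched, with 30 promoters, and 2 of these (6.67%) held CACGTG and 3 (10%) CATGTG, beside the shares over all promoters given above. The Trem2 and Gpnmb promoters held neither. The 2 promoters with CACGTG, which belong to cathepsin genes, are shown 5′ to 3′ toward the start on the minus strand with the motif in capitals. That of Ctsd (chr7:142387828-142388077) holds it 245 and 98 bases before the start, and that of Ctsl (chr13:64370521-64370770) 236 bases before it. A match of letters is a description and not a bound site.
Ctsd: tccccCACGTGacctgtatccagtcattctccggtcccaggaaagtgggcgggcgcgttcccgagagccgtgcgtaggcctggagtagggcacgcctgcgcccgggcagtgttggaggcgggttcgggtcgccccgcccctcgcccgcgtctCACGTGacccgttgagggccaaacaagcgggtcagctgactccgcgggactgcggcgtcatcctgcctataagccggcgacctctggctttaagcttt
Ctsl: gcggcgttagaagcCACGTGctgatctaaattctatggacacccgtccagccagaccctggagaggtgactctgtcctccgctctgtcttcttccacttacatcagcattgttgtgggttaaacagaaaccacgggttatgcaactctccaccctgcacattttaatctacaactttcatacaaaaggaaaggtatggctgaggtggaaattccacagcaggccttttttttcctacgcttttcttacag

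Within members, hKO was set against WT to describe how the state differed between the pools. A gene was measured if it reached 50 CPM in either pool, and it was counted as higher or lower if its ratio was 2-fold or more and the exact binomial interval left out 0 on the log2 scale. Of 3722 measured genes, the genes of the rule left out, 2.44% were higher and 1.61% lower in hKO, and the median log2 ratio was 0.06. Leaving out mitochondrial, ribosomal-protein, hemoglobin, immunoglobulin, T-cell-receptor and numbered predicted genes and setting aside free RNA left 3471 genes, of which 49 were higher and 49 lower (1.41% each way). A gene that reached 50 CPM only in the pool where it was higher had to differ, so these counts are descriptions; of 3015 genes that reached it in both pools, 37 were higher and 20 lower. Scaling to the median ratio over genes in place of total UMIs gave 36 higher and 61 lower, 37.1% higher in place of 50%.

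The lipid-associated programme was somewhat lower in hKO members, mostly by less than 2-fold. Of 31 listed genes, all measured, 0 were higher and 2 lower in hKO, against 2.44% and 1.61% of the 3722 measured genes. Of the list 21 had a ratio below 0, and its median log2 ratio was -0.30, against 0.06 over all measured genes. The list made up 7.74% of member UMIs in WT and 5.68% in hKO, a sum that rests on its most abundant genes. Apoe alone gave 56475 of the list's 147715 UMIs in WT and 26571 of 79671 in hKO (log2 ratio -0.64). It was also seen in 72.4% and 87.9% of thinned T-cell barcodes without C1q, and the part of free RNA was not tested. Spp1 was at 409 CPM in WT and 243 CPM in hKO (-0.75), Cd9 at 283 and 207 CPM (-0.45), Lpl at 1516 and 1010 CPM (-0.59) and Plin2 at 793 and 521 CPM (-0.60). The summed level of Spp1 was also lower in hKO T-cell barcodes without C1q, as given above. The part of free RNA in its ratio was not tested. On the other side lay Atp6v0d2, at 155 and 224 CPM (0.54), Syngr1, at 39.3 and 59.9 CPM (0.61), and Pld3, a lysosomal nuclease, at 197 and 297 CPM (0.59). The 2 genes counted as lower were the protease gene Ctsl, with 845 UMIs in WT and 279 in hKO (443 and 199 CPM, log2 ratio -1.15, interval -1.35 to -0.96), and Capg, with 836 and 284 UMIs (438 and 203 CPM, -1.11, -1.31 to -0.92).

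The counts and the size of the difference depended on the gate. The bins and the removal of single barcodes or of barcodes with Kupffer cell UMIs were chosen after seeing the data. Within the top bin of at least 12 Trem2 and Gpnmb UMIs 2 genes were higher and 2 lower with a median log2 ratio of -0.19. Within the bin of 3 to 5, 1 of 29 measured was higher and 0 lower (median -0.04), and without the barcodes with Kupffer cell UMIs 0 were higher and 2 lower (-0.10). Thinning to 2000 UMIs before gating gave 4 higher and 2 lower (-0.10), and a gate of at least 5 Trem2 and Gpnmb UMIs gave 1 and 1 (-0.09). Lpl had a log2 ratio of -0.47 in the top and -0.05 in the bottom bin. Spp1 had -0.43 in the top bin and 0.92 in the bottom bin, but 1 hKO barcode held 78 of the 158 Spp1 UMIs of the bottom bin, and without it the ratio was -0.05. Ctsl was at -1.21 in the top and -0.28 in the bottom bin. It was also lower in T-cell barcodes of hKO (-1.57). Capg was at -0.78 in the top and -0.73 in the bottom bin.

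Lysosome, efferocytosis, TREM2 signalling and fatty acid uptake genes had list medians between -0.09 and 0.19, while class II and interferon lists lay lower. Of 24 measured lysosome genes 0 were higher and 0 lower, with a median log2 ratio of -0.02, and of 10 efferocytosis genes, which serve the uptake of dead cells, 0 and 0, with a median of 0.17. Mertk, the receptor for dead cells, was at 580.5 and 620 CPM (0.09), and Axl at 361 and 417 CPM (0.21). Of 13 TREM2 signalling genes 0 and 0 passed (median 0.19), with Tyrobp at 2122 and 2387 CPM. Of 10 fatty acid uptake and binding genes 0 and 0 passed (median -0.09). The class II list had 0 of 9 called and a median of -0.35, with H2-Aa at 5971 and 4683 CPM. In the interferon list 2 of 14 were higher, Cxcl9 (91.7 and 218 CPM, log2 ratio 1.25) and Iigp1 (40.3 and 107 CPM, 1.41), while its median was -0.45 and Bst2 was at 405 and 215 CPM (-0.92). Without the barcode with most Cxcl9 in each library, left out after seeing the data, its log2 ratio was 0.96, under the size limit.

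**Figure D3:**
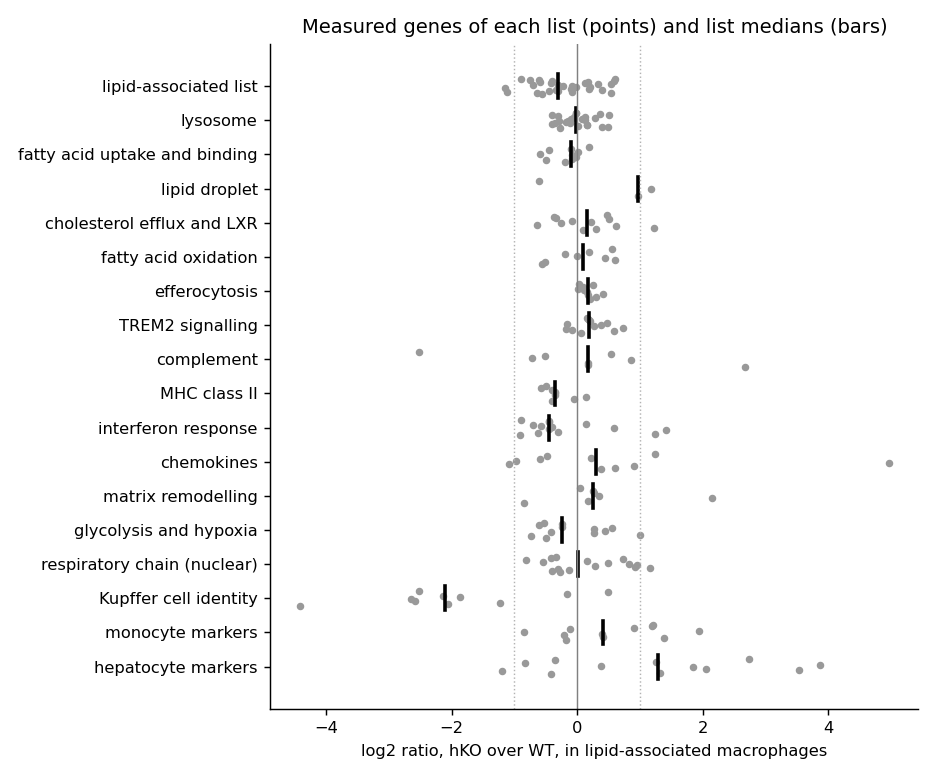
Log2 ratio of hKO over WT within members (horizontal axis) for every measured gene (grey points) of 18 gene lists (vertical axis), with the list median as a black bar and dotted lines at a ratio of 2-fold. The lipid-associated list centres at -0.30 and the lysosome list at -0.02, the Kupffer cell list lies at -2.10, and the hepatocyte markers at 1.29.

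Kupffer cell genes were lower in hKO members. Of 18 listed, 10 were measured, of which 8 were lower and 0 higher, against 1.61% and 2.44% of the 3722 measured genes. The list's median log2 ratio was -2.10. Cd207, the lectin langerin, had 407 UMIs in WT members, carried by 33 cells, and 14 in hKO, carried by 4 cells (213 and 9.99 CPM, log2 ratio -4.42, interval -5.30 to -3.65). Cd5l, a secreted scavenger protein, had 2545 and 447 UMIs (1333 and 319 CPM, -2.06, -2.21 to -1.92). Folr2 (-2.65), Fcna (-2.58), Vsig4 (-2.52) and the transcriptional inhibitors Id3 (-2.14) and Id1 (-1.86) were lower as well, and Clec1b at -1.23. Fcna turned to 0.14 when barcodes were thinned to 2000 UMIs before gating. Slc40a1 and Spic, a heme-response transcription factor, had -0.16 and 0.49 and were not called.

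These genes were lower in other hKO macrophages too. In macrophages without Trem2 or Gpnmb the log2 ratio of Cd207 was -3.13, of Cd5l -2.07 and of Vsig4 -2.36, and in the Kupffer gate -1.39, -0.69 and -0.98. Without the barcodes that had at least 2 UMIs of the 7 Kupffer cell genes, a setting chosen after seeing the data and one that removes these genes by its own construction, 1 of 5 measured genes of the list was lower, 1 was higher and the median was -0.44. Within the top Trem2 and Gpnmb bin 7 of 9 were lower (median -1.75).

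Ccl8, a chemokine that draws monocytes and T cells, was the gene most raised in hKO members. It had 30 UMIs in WT and 688 in hKO, 15.7 and 491 CPM, a log2 ratio of 4.96 (4.44 to 5.54). The UMIs lay in 10 of 232 WT and 45 of 173 hKO members, and the 18 hKO members with most held 93.9% of them. After thinning, 1.90% of WT and 15.1% of hKO members had a UMI. A pair of hKO barcodes, 1 in the top and 1 in the bottom bin of Trem2 and Gpnmb UMIs, held 452 of the 688 UMIs. Without these 2 barcodes, left out after their values were seen, hKO members were at 172 CPM, a log2 ratio of 3.45. The ratio was 6.08 in the top bin and 4.73 in the bottom bin, and 3.62 and 3.48 without the barcode with most Ccl8 in hKO in each bin. Macrophages without Trem2 or Gpnmb had Ccl8 at 23.4 CPM in WT and 373 CPM in hKO (3.99), and its difference between the gates did not pass in edgeR's quasi-likelihood test (log2 fold 0.25, adjusted p 0.755). T-cell barcodes without C1q had 0.761 and 15.4 CPM of Ccl8. After thinning, 0.271% of these barcodes in WT and 3.17% in hKO had a Ccl8 UMI. In T-cell barcodes with 1 to 4 C1q UMIs the shares were 0.524% and 8.43%. The part of free RNA in the members' Ccl8 was not tested.

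**Figure D4:**
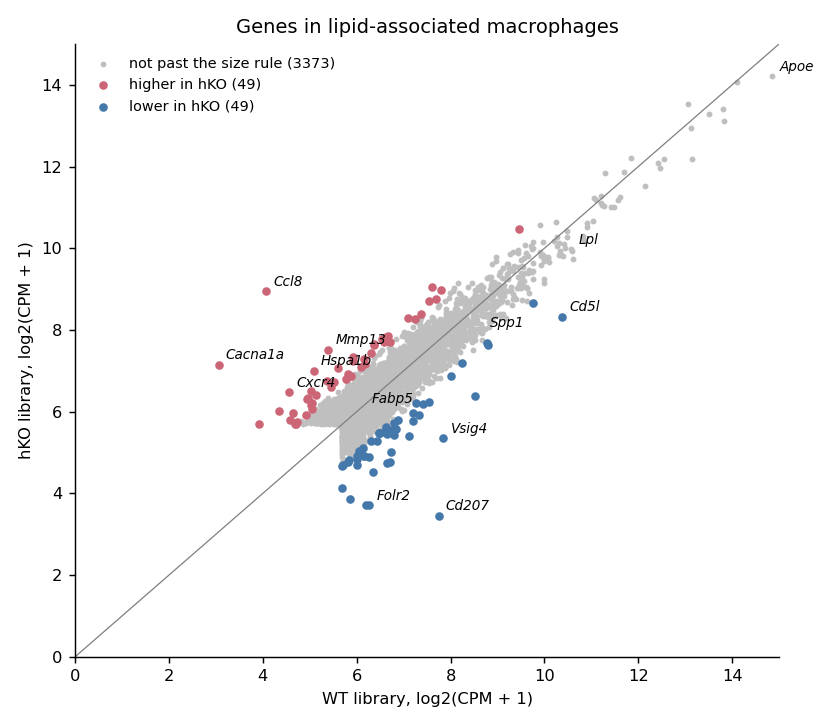
Level of each measured gene in members of the WT library (horizontal axis) and the hKO library (vertical axis), both as log2(CPM + 1), without the genes of the rule, the gene kinds left out and free RNA; coloured points are the 49 higher and 49 lower genes and the line marks equal levels. Ccl8 and Cacna1a stand above the line, Cd207 and Cd5l below it, and Fabp5 on it.

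The other genes raised in hKO members had several roles. Cacna1a, a calcium channel subunit, had 14 and 197 UMIs (7.33 and 141 CPM, log2 ratio 4.26). Mmp13, a collagenase, had 78 and 255 UMIs (40.9 and 182 CPM, 2.15), carried by 32 WT and 56 hKO cells, and was the 1 of 7 measured matrix genes that was higher. Cxcr4, the receptor for CXCL12, had 43 and 123 UMIs (22.5 and 87.7 CPM, 1.96), carried by 37 and 67 cells, and the heat shock gene Hspa1b 63 and 178 (33.0 and 127 CPM, 1.94). The remaining 7 of the 12 highest, Cox20, Cbfa2t3, Samsn1, Gdpd3, Lst1, Cox17 and Iigp1, had log2 ratios of 1.84 to 1.41. Thinned to 2000 UMIs before gating, Cbfa2t3, Samsn1 and Iigp1 turned to -0.18, -1.08 and -0.60, and Iigp1 was at -1.13 in the top Trem2 and Gpnmb bin. Of the genes above, Cacna1a (4.66), Mmp13 (1.33), Cxcr4 (1.21) and Hspa1b (1.66) were also higher in hKO macrophages without Trem2 or Gpnmb.

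Of 14 monocyte genes 11 were measured, of which 4 were higher in hKO members and 0 lower, against 2.44% and 1.61% of the 3722 measured genes. The list's median log2 ratio was 0.41, and that of all measured genes 0.06. Plac8 had 423 and 708 UMIs (222 and 505 CPM, 1.19), the calcium-binding S100a4 259 and 439 (136 and 313 CPM, 1.21) and Chil3 57 and 109 (29.9 and 77.8 CPM, 1.38). The fourth, Hp, was set aside as free RNA (73.9 and 283 CPM, 1.94). With at least 5 Trem2 and Gpnmb UMIs, and likewise with at least 12, 2 genes of the list were higher and 2 lower. Ccr2 had 260 and 230 CPM (-0.18) and Fn1 140 and 77.8 CPM (-0.85). S100a4 had a log2 ratio of 2.27 in T-cell barcodes and Plac8 0.83, and the part of free RNA or library in the members' values was not tested. When barcodes were thinned to 2000 UMIs before gating, which left 119 WT and 54 hKO members, Plac8 and S100a4 turned to log2 ratios of -0.08 and -0.14. The list then had 1 of 9 measured genes higher and 0 lower, with a median of -0.08.

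Further genes lower in hKO members were Fgf13 (198 and 37 UMIs, log2 ratio -1.97), Vsig8 (-2.07), the glucocorticoid-induced Fkbp5 (188 and 36 UMIs, -1.94), Plxdc2 (-1.75) and the fatty acid binding protein gene Fabp7 (263 and 58 UMIs, 138 and 41.4 CPM, -1.74). Fabp7 lay in 62 WT and 19 hKO members. The chemokine Ccl6 had 1640 and 566 UMIs (859 and 404 CPM, -1.09), and Cd14, the co-receptor for endotoxin, 280 and 75 (147 and 53.5 CPM, -1.46). In macrophages without Trem2 or Gpnmb the log2 ratios of Fgf13 and Plxdc2 were 0.77 and 0.21, and the difference between the gates was not tested.

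**Figure D5:**
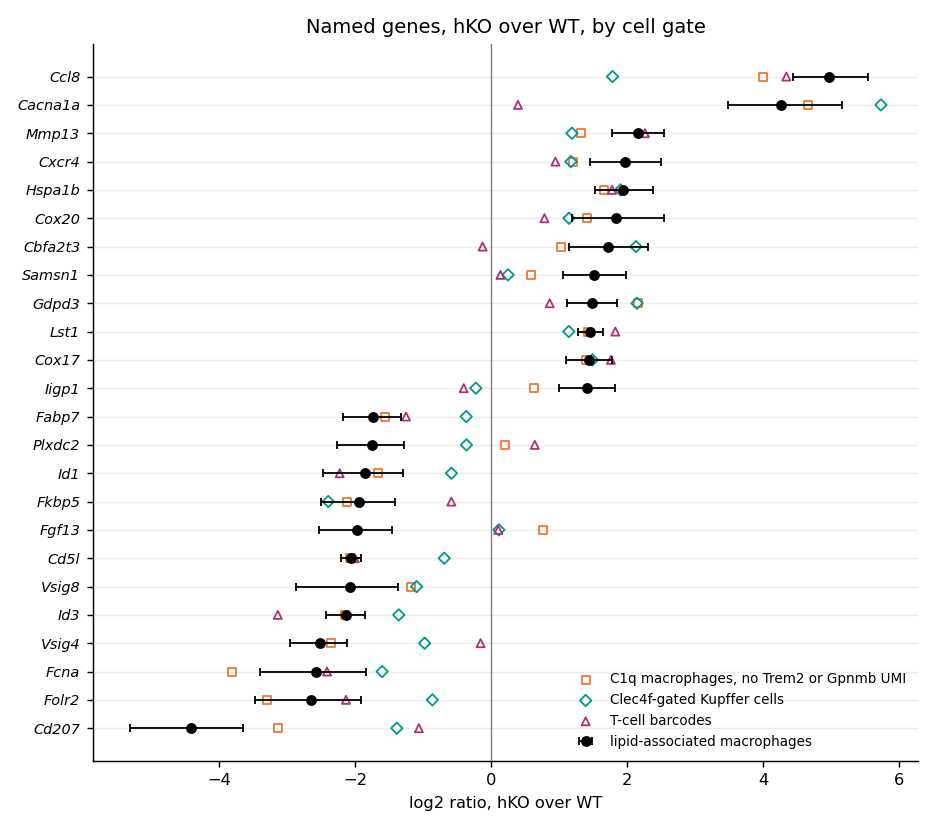
Log2 ratio of hKO over WT (horizontal axis) for the 12 highest and 12 lowest genes in members (black points, bars are exact binomial 95% intervals for counting error), with the ratio of the same gene in 3 other gates as open symbols. Ccl8 is raised in all 4 gates, Cd207 is lowest in members at -4.42, and Fgf13 is at -1.97 in members and 0.77 in macrophages without Trem2 or Gpnmb.

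Part of the genes that differed between hKO and WT members also differed in other cells of the same libraries. Of the 49 higher genes, 28 had a log2 ratio of at least 1 in T-cell barcodes too, 32 in macrophages without Trem2 or Gpnmb and 25 in the Kupffer gate, against 3.54%, 1.99% and 2.36% of the 3471 genes. Of the 49 lower genes, 17, 20 and 10 were lower by at least 1 there, against 3.49%, 1.07% and 0.951%. Most of the lower genes did not reach that size in these gates, though most had a ratio below 0 there. In T-cell barcodes 40 of 48 with a ratio were below 0 (median log2 ratio -0.62). In macrophages without Trem2 or Gpnmb 44 of 49 were (-0.82), and in the Kupffer gate 43 of 49 (-0.64). Of the 49 higher genes 41, 44 and 44 were above 0 in these gates. The shares of all genes with these signs are not given here. Small mitochondrial proteins, picked out after their values were seen, were among the shared genes: Cox17 had a log2 ratio of 1.43 in members and 1.76 in T-cell barcodes, and Cox6c 1.16 and 1.45. As a list, 1 of 16 measured respiratory chain genes was higher and 0 lower, with a median of 0.02. Genotype, library and tumor pool cannot be told apart here.

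Transcripts of other cells differed between the libraries inside the gate. The 13 hepatocyte markers summed to 0.209% of member UMIs in WT and 0.411% in hKO, and to 0.240% and 0.720% in T-cell barcodes, and none was at 0. Of 12 measured, 7 were higher and 1 lower, all set aside as free RNA, with Alb at 450 and 1130 CPM. The 5 erythroid markers went the other way, at 0.366% and 0.0912% of member UMIs and 1.44% and 0.189% in T-cell barcodes. T-cell markers were at 0.0180% and 0.0213%, and none of the 10 was at 0. C3, which hepatocytes make, was seen in 38.6% of thinned hKO members and 48.4% of T-cell barcodes, and its log2 ratio was 2.67 in members and 3.44 in T-cell barcodes. Leaving out members with over 1% hepatocyte UMIs left 51 genes higher and 53 lower.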

How the data were processed

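UMI counts per gene and barcode were used as the authors deposited them, made with Cell Ranger 7.1.0 per the file headers. The submitters' processing notes name Cell Ranger, R 3.0, Seurat 3 and mm9, and which gene annotation was used is unstated in those sources. The gate, the gene lists and the tests were chosen with earlier results of these data known. Barcodes had at least 500 UMIs, 200 genes and at most 25% mitochondrial UMIs. UMIs were summed per library and gate. Gates were compared in 1 fit of 3 gates by 2 libraries with library as block (edgeR 4.0.16, TMM, quasi-likelihood test, Benjamini-Hochberg adjustment; DESeq2 1.42.0 as an alternative; R 4.3.3). Ratios of hKO over WT carry exact conditional binomial 95% intervals, with CPM intervals exact Poisson (Python 3.11.15, scipy 1.17.1), and UMIs are not replicates. Both procedures were tried on simulated counts, with counting error only for the ratios and 1 common dispersion for edgeR. These simulations held no spread between tumor pools, so they do not vouch for the hKO against WT counts. Genes were set aside as free RNA where their level was over 10 times higher in a gate of hepatocytes, T, B, endothelial, neutrophil or plasmacytoid cells of the library in which they were higher. Named genes were the 12 highest and 12 lowest per comparison after the exclusions given in the report; gate comparisons also asked for 50 CPM in a gate and 1 direction in both libraries. List members of high level or large ratio, Fabp5, Trem2, Gpnmb, Spp1, Cd9, Lpl and Ccl8 were named too, and further list members were named after their values were seen. Aldoa had no feature under that symbol. T-cell barcodes had at least 3 UMIs of Cd3d, Cd3e and Cd3g and 0 of C1q, except where 1 to 4 C1q UMIs are named. Doublets were called with Scrublet (scanpy 1.11.5) and kept in the main values. The caller's own threshold marked 4% of WT and 0.0175% of hKO barcodes, so the expected rate was used for hKO, and removal took 3 and 9 members.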

Additional observations from a re-analysis of the deposited data

Results flagged for a closer look

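For 4 genes the hKO over WT ratio in members had the opposite direction in another macrophage gate, with counting intervals that excluded 0 in both, and the difference between the gates was not tested. Cdkn1a, an inhibitor of the cell cycle, had a log2 ratio of -1.40 in members and 0.94 (0.37 to 1.49) in the Kupffer gate. Fgf13 had -1.97 in members and 0.77 (0.28 to 1.28) in macrophages without Trem2 or Gpnmb. Igf1r, the receptor for insulin-like growth factor, had 1.05 in members and -0.41 (-0.64 to -0.17) in macrophages without Trem2 or Gpnmb. Mgll, the lipase that completes triglyceride breakdown, had 1.17 in members and -1.62 (-2.72 to -0.68) in the Kupffer gate, but thinning to 2000 UMIs before gating turned its ratio in members to -0.45.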

How the results depend on the processing

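Shares of members of all barcodes within the limits, WT first, were 2.87% and 2.25% at a mitochondrial limit of 10%, 2.06% and 1.06% at 50%, 3.04% and 2.58% with at least 2 Trem2 and Gpnmb UMIs, 1.53% and 0.699% with at least 5, 1.56% and 0.609% after thinning to 2000 UMIs, and 2.08% in hKO without barcodes over 1% hepatocyte UMIs. Of C1q macrophages they were 29.0% and 14.1%, 16.4% and 6.67%, 25.9% and 15.5%, 13.1% and 4.21%, and 14.7% and 3.81% under the first 5 settings, 25.3% and 10.6% from 1000 UMIs and 500 genes, and 13% in hKO without hepatocyte-rich barcodes. Genes higher and lower in hKO numbered 377 and 316 with no floor, 32 and 23 at 100 CPM, 95 and 77 with at least 5 Trem2 and Gpnmb UMIs, 166 and 116 thinned, and 174 and 166 with at least 12, with 76 higher without abundant gene kinds and 78 higher with 3 to 5; the last 2 bins were chosen after seeing the data. DESeq2 called 92 higher and 195 lower against macrophages without Trem2 or Gpnmb and 137 and 184 against the Kupffer gate. Lower Kupffer cell genes numbered 13 with no floor, 5 at 100 CPM and 1 without barcodes with Kupffer cell UMIs. Higher and lower monocyte genes numbered 2 and 2 with at least 5 UMIs, 1 and 0 thinned, 2 and 1 without Kupffer cell UMIs, 2 and 2 with at least 12 and 1 and 0 with 3 to 5. Lower lipid-associated genes numbered 1 with at least 5 UMIs and 0 with 3 to 5. Of 1748 log2 ratios of single genes 8 changed direction: thinned, Cbfa2t3 to -0.18, Fcna to 0.14, Iigp1 to -0.60, Mgll to -0.45, Plac8 to -0.082, S100a4 to -0.14 and Samsn1 to -1.08, and Iigp1 with at least 12 UMIs to -1.13. None of the 8 came from leaving out the barcode with most UMIs of a gene in each library, also chosen after seeing the data. The cause was not tested. Of 1594 gate-against-gate values of single genes 0 changed direction, 53 lost and 31 gained the call. No paired analysis was possible because hKO and WT are 1 library each; the gate comparisons already hold library as a block. Leaving out a library leaves no test.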
